A study of Mus musculus with 8 samples.

Results

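Apoe and the genes of lipid efflux and uptake were examined in macrophages grown from the bone marrow of WT mice and of mice lacking inducible nitric oxide synthase (iNOS). The set was a list of 10 genes (Apoe, Apoc2, Abca1, Abcg1, Nr1h3, Lpl, Lipa, Scarb1, Cd36 and Npc2), and every row of the array carrying 1 of these symbols was taken. This gave 11 rows for 9 of the 10 genes, out of 25697 rows and 18138 symbols on the array. Lipa had no row under its present symbol. It was read from the row with the older symbol Lip1, whose transcript accession RefSeq gives to Lipa, and is kept outside the counts. Apoe entered the list because its values separate the arrays by labelled genotype, so its differences between the genotypes are described without a test.

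RNA from 8 arrays was measured, with 2 arrays for each of 4 groups. Bone marrow from female C57bl/6J mice aged 8 weeks, wild type or iNOS-deficient, was cultured for 7 days in medium with GM-CSF (10 ng/ml). Cells were left unstimulated or were polarised to M1 with IFN-γ at 10 ng/ml and LPS at 200 ng/ml, and the RNA of the M1 groups was taken after 6 h. The deficient line is named in the methods as B6.129P2-Nos2tm1Lau/J, a germline allele present in every cell of the culture. The groups are named by genotype (WT or iNOS-/-) and by state (unstimulated or M1). The labels do not say whether the 2 arrays of a group came from separate mice, so p-values measure only the spread between these arrays.

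Macrophages take up lipoproteins and cell debris, break the lipids down in lysosomes and return surplus cholesterol to extracellular acceptors. The nuclear receptors LXRα (Nr1h3) and LXRβ sense oxysterols and are known to drive transcription of the exporters Abca1 and Abcg1 and of the linked apolipoprotein genes Apoe and Apoc2. Inflammatory stimulation of macrophages is known to change the expression of many genes of this pathway.

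The probe that reports Apoe lies at position 702 of its transcript, and no other row of the array shares a run of 25 bases with it. Its sequence is shown because the values below rest on this single row.
Apoe probe: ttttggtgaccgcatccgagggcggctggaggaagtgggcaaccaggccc
Apoc2 was read by a bright row (position 155) and a dim one (position 295). The first 30 bases of each are shown because the 2 rows of this gene do not report the same range.
Apoc2 position 155: gggggccctccagagctataaagcctgcca
Apoc2 position 295: tgttgggaaatgaggtccaggggaaccagg

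Apoe and Apoc2 are neighbours on chromosome 7, and the bright Apoc2 row had the profile most like Apoe among the members. Their promoters are therefore given as the 250 bases before the start site (RefSeq, GRCm38.p6, minus strand). For Apoe, which has 3 entries, the most upstream start is shown. It spans chr7:19699189-19699438, and the Apoc2 stretch spans chr7:19677942-19678191. Capitals mark matches to AGGTCA, the LXR half-site, to GAGGAA, the core of PU.1 sites, or to GGGCGG, the GC box, on either strand.
Apoe promoter: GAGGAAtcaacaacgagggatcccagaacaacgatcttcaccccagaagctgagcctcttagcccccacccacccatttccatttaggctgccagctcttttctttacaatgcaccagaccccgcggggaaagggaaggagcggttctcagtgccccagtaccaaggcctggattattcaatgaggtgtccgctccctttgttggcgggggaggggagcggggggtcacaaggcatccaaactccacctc
Apoc2 promoter: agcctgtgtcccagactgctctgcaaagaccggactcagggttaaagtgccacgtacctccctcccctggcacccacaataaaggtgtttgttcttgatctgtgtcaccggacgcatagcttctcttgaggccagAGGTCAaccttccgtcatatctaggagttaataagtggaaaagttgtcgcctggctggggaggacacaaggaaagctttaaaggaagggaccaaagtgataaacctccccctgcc
The printed Apoe stretch holds 1 GAGGAA, at its first base. The Apoc2 stretch holds 1 AGGTCA, which begins at position -115 from the start site. Among 32851 promoters of this length, 23.3% hold GAGGAA, 14% hold AGGTCA and 32.7% hold GGGCGG. The complete LXR element, a pair of AGGTCA half-sites spaced by 4 bases and called DR4, occurs in 0.0152% of them and in none of the 10 entries for the 7 members that have one. These matches describe letters in a window and not binding.

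Values are log2 intensities after the arrays were set to a common scale, with values under 1 set to 1. A row counts as detected on an array at a detection p-value under 0.05, and a change is called at a limma adjusted p under 0.05. Between 11833 and 12673 of the rows were detected on an array. The targeted gene does not settle the genotype labels: Nos2 was not detected in either unstimulated group, and read 7.45 and 7.04 on the WT M1 arrays and 7.52 and 7.69 on the iNOS-/- M1 arrays. Whether its row, at transcript position 3546, lies in the deleted part is not given in the sources used here. Directions between genotypes therefore rest on the labels.

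Apoe encodes apolipoprotein E, a secreted protein that accepts cholesterol and carries lipids between cells. It read 11.49 and 11.57 on the WT unstimulated arrays, 8.82 and 8.96 on WT M1, 6.87 and 6.84 on iNOS-/- unstimulated, and 6.62 and 6.79 on iNOS-/- M1. The 4 groups did not overlap, and Apoe was detected on all 8 arrays. All WT arrays lay above all arrays labelled iNOS-/-, with a gap of 1.96 between the lowest WT and the highest iNOS-/- array. Of 9687 rows detected on every array, 1427 had genotypes that did not overlap, counting both directions, and 1 row had a wider gap in either direction. The difference of iNOS-/- from WT means was -4.68 before stimulation (25.6-fold lower) and -2.19 after it (4.55-fold lower), values for which the gene was chosen.

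The split by genotype that Apoe was chosen for does not name its response to LPS plus IFN-γ, though earlier results of these data were known. In WT cells Apoe fell by 2.64 (SE 0.10, 6.23-fold, adjusted p = 8.54e-05). In iNOS-/- cells the change was -0.15 (SE 0.10, adjusted p = 0.281), so the unstimulated and M1 levels of that genotype were not told apart by the test. The responses differed by 2.49, which is also the difference between the genotype values above and is therefore given without a test. The WT M1 mean stayed above both iNOS-/- groups. Fewer cells expressing a gene and less RNA per cell cannot be told apart in these bulk samples.

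Apoc2 encodes apolipoprotein C-II, the cofactor of lipoprotein lipase. Its bright row read 9.66 and 9.54 on WT unstimulated arrays, 7.91 and 8.01 on WT M1, 7.30 and 7.16 on iNOS-/- unstimulated, and 6.79 and 6.73 on iNOS-/- M1. The 4 groups did not overlap and stood in the same order as for Apoe. Apoc2 fell by 1.65 in WT cells (SE 0.10, adjusted p = 0.000333) and by 0.47 in iNOS-/- cells (SE 0.10, adjusted p = 0.0127), and the responses differed by 1.18 (SE 0.14, adjusted p = 0.00257). The fall in iNOS-/- cells was not called without iNOS-/- unstimulated replicate 1 (-0.40, adjusted p = 0.0678) or without iNOS-/- M1 replicate 2 (-0.43, adjusted p = 0.0551). Between genotypes it was 2.38 lower in unstimulated iNOS-/- cells (5.19-fold, adjusted p = 0.000139) and 1.20 lower in M1 cells (2.29-fold, adjusted p = 0.00064).

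The dim Apoc2 row was detected on the WT unstimulated arrays alone, at 3.63 and 4.10. The WT unstimulated mean was at least 2.14-fold higher than WT M1 and at least 2.95-fold higher than iNOS-/- unstimulated. The row passed the filter through this group alone and had to be high there, so these bounds are given without a test. It gave no measured level in the other 3 groups, so it bears only on the WT unstimulated arrays.

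**Figure D1:**
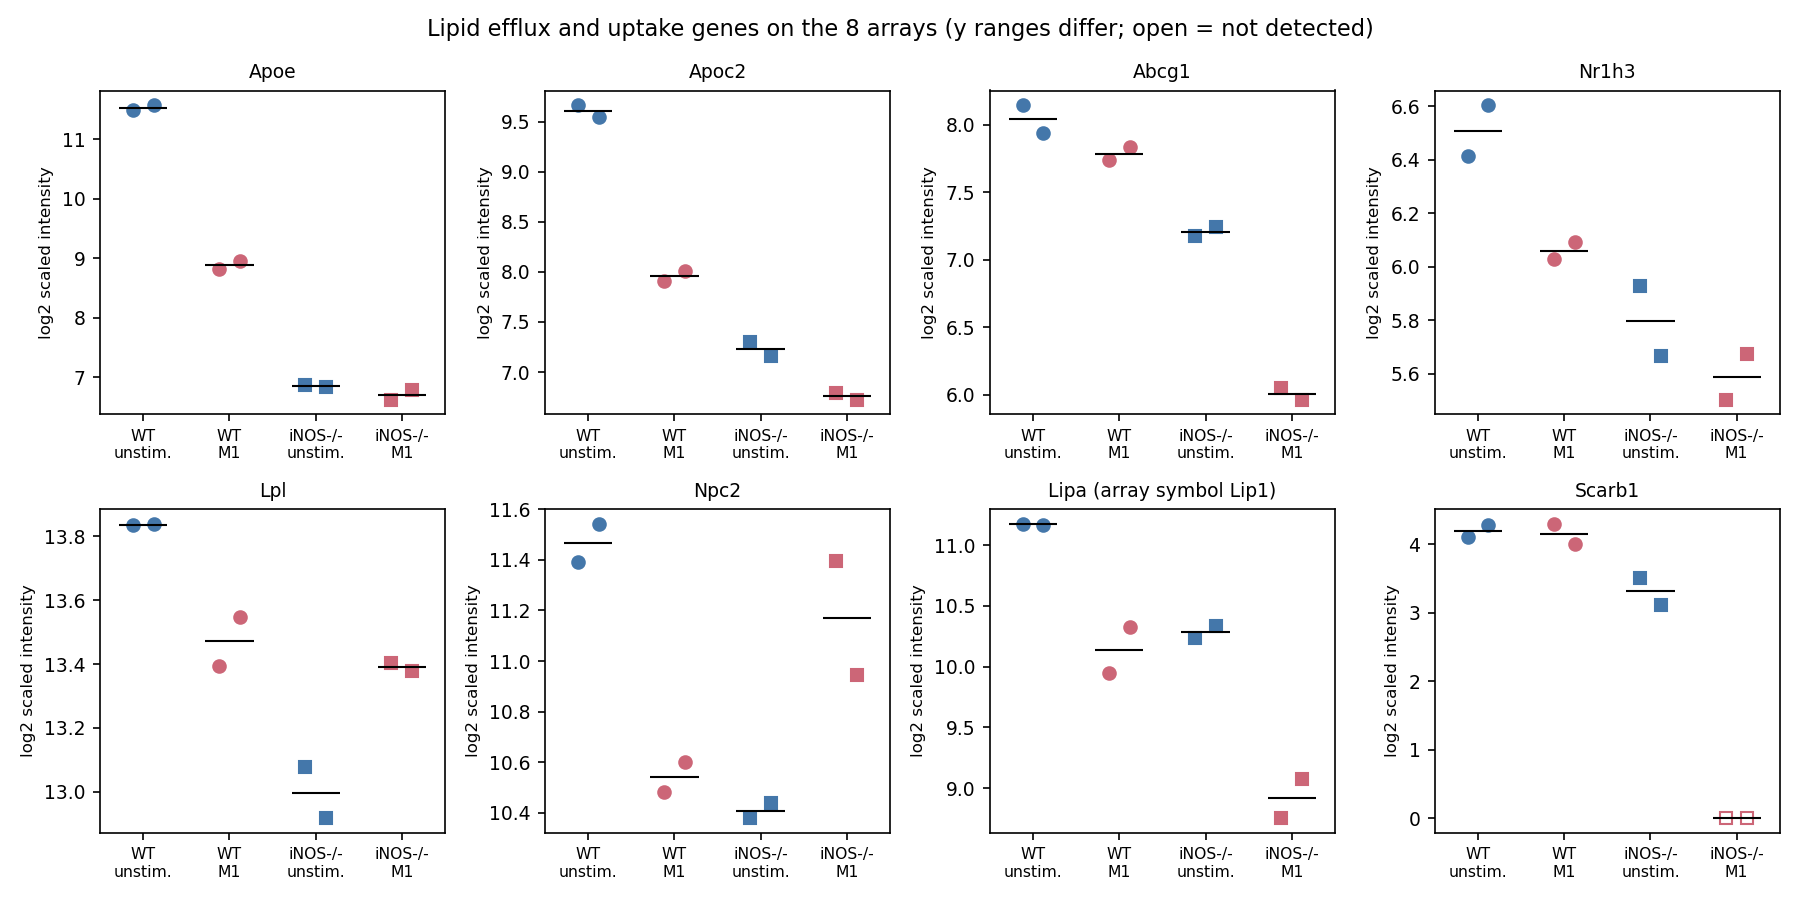
Log2 scaled intensity of 8 rows (y axis, a separate range in each panel) on the 8 arrays, grouped by labelled genotype and stimulation (x axis). Circles are WT and squares iNOS-/-, blue is unstimulated and red M1, bars are means, and open symbols are undetected. The Apoc2 and Nr1h3 panels show the rows at positions 155 and 1668. Apoe and Apoc2 step down from WT unstimulated to iNOS-/- M1, while Npc2 and Lpl are lowest on iNOS-/- unstimulated arrays.

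Abcg1, a transporter that passes cholesterol to high-density lipoprotein, fell further in iNOS-/- than in WT cells. It read 8.15 and 7.94 on WT unstimulated arrays, 7.74 and 7.83 on WT M1, 7.18 and 7.24 on iNOS-/- unstimulated, and 6.05 and 5.96 on iNOS-/- M1. All WT arrays lay above all iNOS-/- arrays, and the iNOS-/- M1 arrays were lowest. The WT change was -0.25 (SE 0.11, adjusted p = 0.124), and was called under neqc (-0.29, adjusted p = 0.0443), while Abcg1 fell by 1.20 in iNOS-/- cells (SE 0.11, 2.30-fold, adjusted p = 0.000553). The responses differed by -0.95 (SE 0.15, adjusted p = 0.00622), the opposite sign to Apoc2. Between genotypes Abcg1 was 1.78 lower in iNOS-/- M1 cells (3.44-fold, adjusted p = 0.000279) and 0.83 lower in unstimulated cells (1.78-fold, adjusted p = 0.00394). The file gives no chromosome for the Abcg1 row.

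Abca1, the exporter that loads cholesterol onto lipid-poor apolipoproteins, was near the background. It was detected on the WT unstimulated arrays alone, at 2.83 and 2.77, and no comparison called it. Like the dim Apoc2 row, it passed the filter through that group, so being highest there follows from the filter.

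Nr1h3 encodes LXRα. Its brighter row, at position 1668, read 6.41 and 6.60 on WT unstimulated arrays, 6.03 and 6.09 on WT M1, 5.93 and 5.67 on iNOS-/- unstimulated, and 5.50 and 5.67 on iNOS-/- M1. The iNOS-/- groups overlapped each other and both lay below all WT arrays. It was 0.71 lower in unstimulated iNOS-/- cells (SE 0.14, adjusted p = 0.0141) and 0.47 lower in iNOS-/- M1 cells (SE 0.14, adjusted p = 0.0357). The first call was lost without WT unstimulated replicate 2 (adjusted p = 0.0713) or iNOS-/- unstimulated replicate 2 (adjusted p = 0.0651), and the second without any 1 of the 4 M1 arrays (adjusted p from 0.0587 to 0.137), under quantile normalization (-0.33, adjusted p = 0.0935) and neqc (-0.26, adjusted p = 0.0682), and with no detection filter, the replicate block or the M1 arrays alone (adjusted p from 0.0578 to 0.0618). The first was also lost on the unstimulated arrays alone (adjusted p = 0.0525). The changes on stimulation, -0.45 in WT (adjusted p = 0.0537) and -0.21 in iNOS-/- cells (adjusted p = 0.253), were not called. The WT fall was called under quantile normalization (-0.59, adjusted p = 0.0227), neqc (-0.49, adjusted p = 0.00437), an intercept in the scaling line (adjusted p = 0.0473), detection on all 8 arrays (adjusted p = 0.0217) and an intensity trend (adjusted p = 0.0392). The other Nr1h3 row, at position 395, was detected on 5 of 8 arrays between 2.29 and 3.28 and was called in no comparison.

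Lpl encodes lipoprotein lipase, which releases fatty acids from triglyceride-rich particles. It was among the brightest rows, with between 18 and 91 rows brighter on an array. It read 13.83 and 13.84 on WT unstimulated arrays, 13.39 and 13.55 on WT M1, 13.08 and 12.92 on iNOS-/- unstimulated, and 13.40 and 13.38 on iNOS-/- M1. It was 0.84 lower in unstimulated iNOS-/- than WT cells (1.79-fold, adjusted p = 0.0032). The M1 groups overlapped on this scale, but iNOS-/- M1 was called lower than WT M1 under quantile normalization (-0.66, adjusted p = 0.00253) and neqc (-0.66, adjusted p = 0.000174). WT cells changed by -0.37 on stimulation (adjusted p = 0.0411), a call lost when any 1 array was left out (adjusted p from 0.0561 to 0.154), and with an intercept, the WT arrays alone or the replicate block (adjusted p from 0.0752 to 0.0897). In iNOS-/- cells the change was +0.39 (adjusted p = 0.0232), but it was -0.29 under quantile normalization (adjusted p = 0.0352) and under neqc (adjusted p = 0.0222), so its direction depends on the scaling. The call was also lost without iNOS-/- unstimulated replicate 2 or either iNOS-/- M1 array (adjusted p from 0.0694 to 0.109) and on the iNOS-/- arrays alone (adjusted p = 0.0654). Before scaling, the intensities were 10224 and 9658 on iNOS-/- unstimulated arrays and 9692 and 8771 on iNOS-/- M1 arrays.

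Scarb1, the receptor that exchanges cholesterol with high-density lipoprotein, read 4.11 and 4.28 on WT unstimulated arrays, 4.30 and 4.01 on WT M1, and 3.51 and 3.11 on iNOS-/- unstimulated. It was not detected on either iNOS-/- M1 array. The iNOS-/- M1 level was at least 1.31-fold lower than iNOS-/- unstimulated and at least 2.35-fold lower than WT M1. The limma adjusted p-values, 0.000117 and 0.000153, belong to fitted changes of -3.31 and -4.15, with both iNOS-/- M1 values set to 1. The size and spread of those changes come from that floor, so the bounds stand without a test. Every iNOS-/- value of this row lay under the alternative floor of 16. The row is still counted as called lower in both comparisons and in the difference in response between genotypes. In WT cells the stimulated and unstimulated arrays overlapped (change -0.04, adjusted p = 0.883). It was 0.88 lower in unstimulated iNOS-/- cells (adjusted p = 0.0169), a call lost without WT unstimulated replicate 1 (adjusted p = 0.0546), WT unstimulated replicate 2 (adjusted p = 0.0834) or iNOS-/- unstimulated replicate 2 (adjusted p = 0.065). The difference shrank to -0.19 with a floor of 16 (adjusted p = 0.31), and the call was also lost with an intercept (adjusted p = 0.111), an intensity trend (adjusted p = 0.179) and the unstimulated arrays alone (adjusted p = 0.0538). Cd36, a scavenger receptor for oxidised lipoproteins and fatty acids, was detected on 3 of 8 arrays, at 2.51 to 3.42, and no comparison called it.

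**Figure D2:**
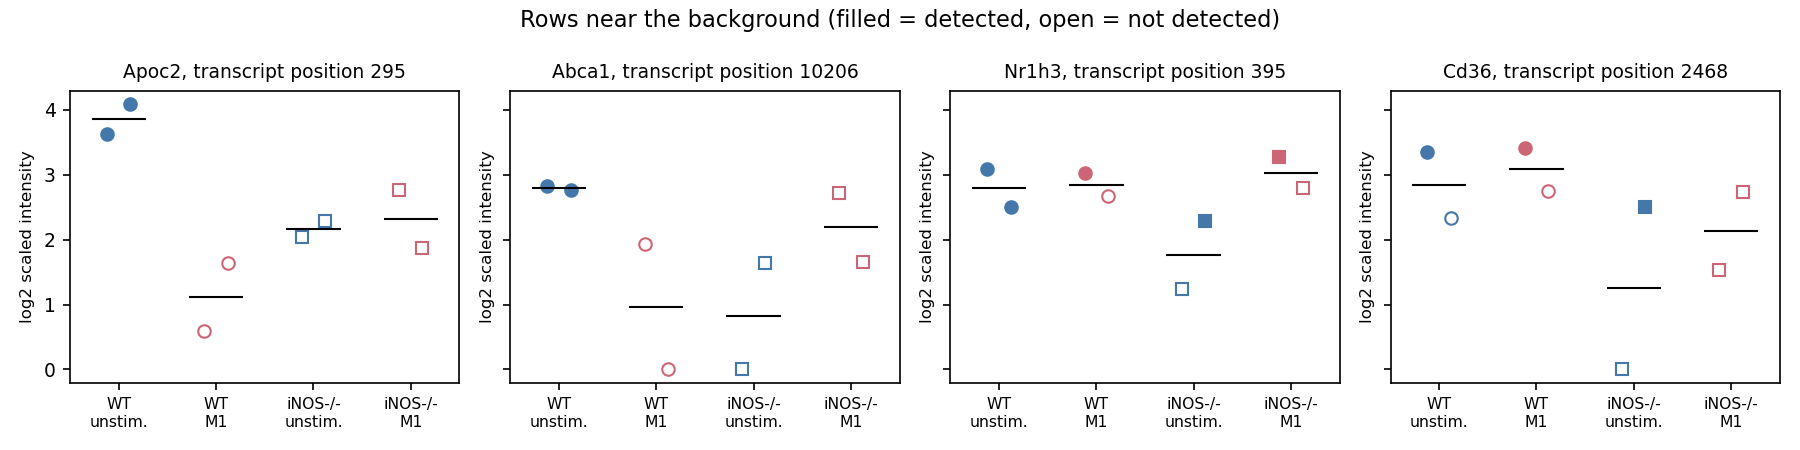
Log2 scaled intensity (y axis) on the 8 arrays (x axis, by group) of the 4 member rows near the background. Filled symbols are detected and open ones are not, bars are means, and the dim Apoc2 row and Abca1 were detected on the WT unstimulated arrays alone.

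Npc2 encodes the small protein that carries cholesterol inside lysosomes. It read 11.39 and 11.54 on WT unstimulated arrays, 10.48 and 10.60 on WT M1, 10.38 and 10.44 on iNOS-/- unstimulated, and 11.40 and 10.94 on iNOS-/- M1. The WT arrays were higher without stimulation and the iNOS-/- arrays higher with it. Npc2 fell by 0.93 in WT cells (SE 0.17, adjusted p = 0.0115) and was 0.76 higher in iNOS-/- M1 cells than unstimulated ones (SE 0.17, adjusted p = 0.0143), and the responses differed by 1.69 (SE 0.24, adjusted p = 0.0043). The WT call was lost without WT unstimulated replicate 2 (adjusted p = 0.0619) or WT M1 replicate 1 (adjusted p = 0.0597). The iNOS-/- call was lost without either unstimulated iNOS-/- array (adjusted p = 0.0685 and 0.0561), and fell to 0.18 under quantile normalization (adjusted p = 0.404) and 0.17 under neqc (adjusted p = 0.298), and was lost on the iNOS-/- arrays alone (adjusted p = 0.0587). The genotype difference was -1.06 before stimulation (adjusted p = 0.00803). In M1 cells it was 0.63 (adjusted p = 0.0291), which became 0.40 without iNOS-/- M1 replicate 1 (adjusted p = 0.0678), 0.17 under quantile normalization (adjusted p = 0.431) and was also lost without either WT M1 array or either unstimulated iNOS-/- array (adjusted p from 0.0552 to 0.117). That call was lost too under neqc (adjusted p = 0.327), no detection filter, the replicate block and the M1 arrays alone (adjusted p from 0.0539 to 0.0981).

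Lipa, the lysosomal acid lipase that frees cholesterol from its esters, was read from the Lip1 row. It read 11.18 and 11.17 on WT unstimulated arrays, 9.95 and 10.33 on WT M1, 10.24 and 10.33 on iNOS-/- unstimulated, and 8.75 and 9.08 on iNOS-/- M1. WT M1 and iNOS-/- unstimulated arrays overlapped, and iNOS-/- M1 arrays were lowest. Lipa fell by 1.03 in WT cells (adjusted p = 0.00899) and by 1.37 in iNOS-/- cells (adjusted p = 0.00193), and the test did not tell the responses apart (difference -0.34, SE 0.24, adjusted p = 0.322), though under neqc they differed by -0.71 (adjusted p = 0.0112). It was 0.89 lower in unstimulated iNOS-/- cells (adjusted p = 0.0154), a call lost without any 1 of the 4 unstimulated arrays (adjusted p from 0.0612 to 0.0789), and 1.22 lower in iNOS-/- M1 cells (adjusted p = 0.00332).

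**Figure D3:**
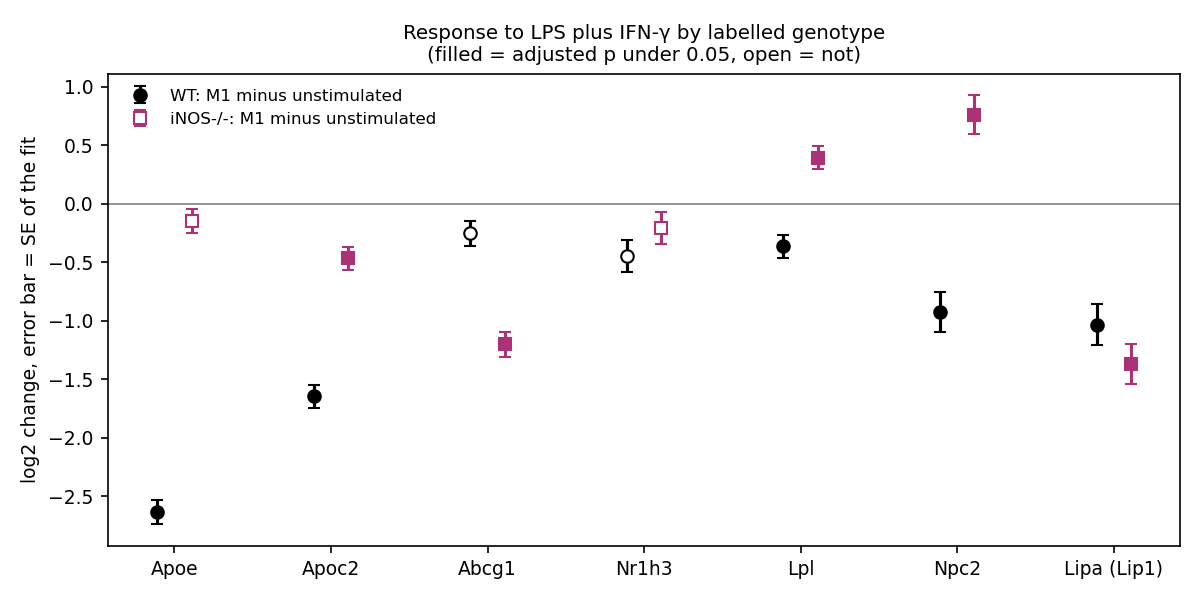
Log2 change on stimulation with LPS plus IFN-γ (y axis, bars are the standard error of the fit) of 7 genes (x axis) in WT (black circles) and iNOS-/- cells (purple squares). Filled symbols have an adjusted p under 0.05. Apoe lies at -2.64 and -0.15, Apoc2 fell further in WT cells, Abcg1 fell further in iNOS-/- cells, and Lpl and Npc2 lie on opposite sides of 0, where the Lpl value of +0.39 in iNOS-/- cells turned to -0.29 under quantile normalization and neqc.

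Of the 11 member rows, 6 were detected on all arrays. The dim Apoc2 row and Abca1 passed the filter through the WT unstimulated arrays alone, so the counts are given without these 2 rows first. In WT cells 4 of the other 9 rows fell on stimulation and 0 rose, where 14.9% and 20.2% of all 13868 rows tested did so. Over all 11 rows 5 fell, a count that was 2 without WT unstimulated replicate 2 and 3 without WT M1 replicate 1. At an unadjusted limma p under 0.05, 6 of the 11 fell and 0 rose. In iNOS-/- cells 3 of the 9 fell and 2 rose, beside 23.8% and 26.2% of all rows. The falls include Scarb1, whose size rests on the floor. The rises were Lpl and Npc2, and neither was called higher under quantile normalization or neqc. The median change of the 9 rows was -0.37 in WT and -0.15 in iNOS-/- cells, beside 0.07 and 0.04 over all rows.

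Between genotypes Apoe was left out as well. In unstimulated iNOS-/- cells 6 of 8 rows were lower and 0 higher, beside 16.2% and 15.9% of all rows, and 0 were higher at an unadjusted limma p under 0.05. With the 2 rows that passed through WT unstimulated arrays, 7 of 10 were lower, a count that was 4 without WT unstimulated replicate 2 or without iNOS-/- unstimulated replicate 2. In M1 cells 4 of 8 were lower and 1 higher, beside 24.3% and 24.2%. The lower rows include Scarb1, at the floor, and the higher row, Npc2, was not called under quantile normalization or neqc. The median difference of the 8 rows was -0.96 before stimulation and -0.71 after it, beside -0.02 and 0 over all rows. These medians use the fitted changes, also for Scarb1 and Cd36, which were undetected on the iNOS-/- M1 arrays. With the 2 rows added the median was -1.05 and -0.28. It was -0.96 and -0.12 with undetected rows set to their bounds. The responses differed between genotypes for 2 of 8 rows in the lower and 3 in the higher direction, beside 21.1% and 20.8% of all rows. The lower rows were Abcg1 and Scarb1, and the Scarb1 value rests on the floor. The higher rows include Lpl, whose difference was 0.08 and not called under quantile normalization and neqc. The 2 WT unstimulated arrays lay above all 6 others for 4 of the 8 rows, beside 18.1% of all rows.

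The share of all called rows that rose moved with the scaling. In WT cells it was 57.6%, against 47.4% under quantile normalization and 44.4% under neqc, and in iNOS-/- cells 52.4%, against 41.9% and 43.3%. The median over all rows in iNOS-/- cells went from 0.04 to -0.13 under quantile normalization.

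The genes with the profile most like Apoe were Pld3 (Pearson r = 0.9975 over 8 arrays), Lgmn (0.9972), Igf1 (0.997), Gstm2 (0.9949) and Mgst1 (0.9939), among 5721 rows detected on all arrays and spanning at least 1 log2 unit. Pld3 is a lysosomal exonuclease, Lgmn the lysosomal protease legumain, Igf1 a growth factor, and Gstm2 and Mgst1 glutathione transferases. Igf1 had a mean of 11.59 in WT unstimulated, 10.13 in WT M1, 8.99 in iNOS-/- unstimulated and 8.98 in iNOS-/- M1 cells. The most opposite were Pik3cg (-0.997), Tpx2 (-0.9958) and Slc2a3 (-0.9904). The points are the same 8 arrays in 4 groups, so r mostly reflects group means. Among members, r with Apoe was 0.987 for the bright Apoc2 row, 0.9534 for the brighter Nr1h3 row, 0.8587 for Lpl, 0.7969 for Abcg1 and 0.5332 for Npc2.

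**Figure D4:**
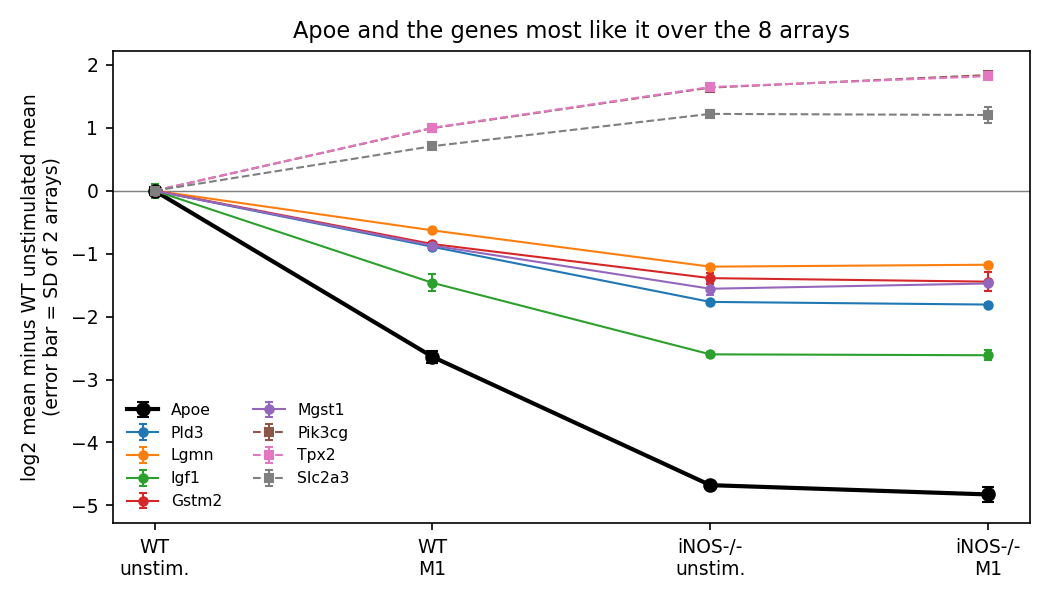
Mean log2 intensity of each gene minus its own WT unstimulated mean (y axis, bars are the SD of 2 arrays) in the 4 groups (x axis). Apoe is black, the 5 most similar genes are solid lines and the 3 most opposite ones dashed, with Pik3cg and Tpx2 drawn almost on each other. The step from WT M1 to iNOS-/- unstimulated is seen in all of them, and the iNOS-/- groups lie close together. The genes were picked by their r with Apoe, so sharing or mirroring its steps follows from that choice.

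Of the 6 genes on each side of Apoe along chromosome 7, none of the 6 tested besides Apoc2 was called lower on stimulation in either genotype. Of all rows, 14.9% were called lower in WT and 23.8% in iNOS-/- cells, and so few genes cannot be told from those shares. Relb, an NF-κB subunit, rose by 1.85 in WT cells (adjusted p = 0.000677) and by 1.62 in iNOS-/- cells (adjusted p = 0.000492). Nectin2, an adhesion receptor, rose by 1.50 (adjusted p = 0.00038) and 2.45 (adjusted p = 4.94e-05), and Bcl3, an atypical IκB protein, by 0.98 (adjusted p = 0.0044) and 1.68 (adjusted p = 0.000367). Tomm40, the gene next to Apoe on the other side from the Apoc genes, was called in no comparison. Its row was near the background, with group means from 1.07 to 3.70, so the absence of a call says little about this gene. Apoc1 and Apoc4 had rows that did not pass the filter.

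A list of 50 other lipid-handling genes was set beside the members, of which 48 had a row and 35 passed the filter. In WT cells 15 fell and 9 rose on stimulation, beside 14.9% and 20.2% of all rows, with a median of -0.46 (-0.37 with bounds) beside 0.07. In iNOS-/- cells 18 fell and 6 rose, beside 23.8% and 26.2%, with a median of -0.33 beside 0.04. In iNOS-/- M1 against WT M1 cells 22 were lower and 4 higher, beside 24.3% and 24.2%, with a median of -0.70 (-0.63 with bounds) beside 0. In unstimulated cells 15 were lower and 5 higher, beside 16.2% and 15.9%, with a median of -0.43 (-0.41 with bounds) beside -0.02. The responses differed for 12 in the lower and 10 in the higher direction, beside 21.1% and 20.8%.

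Fabp5, Pltp, Soat1 and Plin2, which bind, transfer or store lipids, were lower in M1 than in unstimulated WT cells. Fabp5, a fatty acid-binding protein, had means of 10.28 ± 0.01 in WT unstimulated, 8.36 ± 0.08 in WT M1, 7.68 ± 0.03 in iNOS-/- unstimulated and 7.45 ± 0.09 in iNOS-/- M1 cells (SD, n = 2). It fell by 1.93 in WT cells (adjusted p = 0.000157), with -0.24 in iNOS-/- cells (adjusted p = 0.0829), a fall called under quantile normalization, neqc, a floor of 16 and an intensity trend (adjusted p from 0.0211 to 0.0306), and the responses differed by 1.69 (adjusted p = 0.000747). Pltp, the phospholipid transfer protein, fell by 1.08 in WT cells (adjusted p = 0.00615), with -0.25 in iNOS-/- cells (adjusted p = 0.247), and the responses differed by 0.83 (adjusted p = 0.0352), a call lost with no detection filter (adjusted p = 0.0664), the replicate block (adjusted p = 0.052) and 6 of the 8 arrays left out in turn (adjusted p from 0.0525 to 0.1). Soat1, which esterifies cholesterol for storage, fell by 0.70 in WT (adjusted p = 0.00931) and by 0.64 in iNOS-/- cells (adjusted p = 0.00794). Plin2, the lipid droplet coat protein read under its older symbol Adfp, fell by 0.85 in WT cells (adjusted p = 0.00248) and by 0.31 in iNOS-/- cells (adjusted p = 0.042), where the second call was lost without any 1 of the 4 iNOS-/- arrays (adjusted p from 0.111 to 0.141) or either WT unstimulated array (adjusted p = 0.0631).

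Regulators differed among themselves. Pparg, the fatty acid-sensing nuclear receptor, read 8.99 ± 0.14 in WT unstimulated, 7.52 ± 0.16 in WT M1, 6.79 ± 0.16 in iNOS-/- unstimulated and 3.71 ± 0.28 in iNOS-/- M1 cells (SD, n = 2). It fell by 1.46 in WT cells (adjusted p = 0.00364) and by 3.08 in iNOS-/- cells (adjusted p = 0.000163), a difference of -1.61 (adjusted p = 0.00659). Angptl4, an inhibitor of lipoprotein lipase, fell by 1.02 in WT cells (adjusted p = 0.017), a call lost without any 1 of the 4 WT arrays (adjusted p from 0.0591 to 0.0818). Angptl4 was not detected in iNOS-/- M1 cells, at least 6.53-fold lower than in iNOS-/- unstimulated cells (fitted change -3.24, adjusted p = 0.000206). Nr1h2, which encodes LXRβ, was 0.95 higher in iNOS-/- M1 than iNOS-/- unstimulated cells (adjusted p = 0.00191), with 0.37 in WT cells (adjusted p = 0.0639), a rise called under neqc, an intercept, detection on all 8 arrays and an intensity trend (adjusted p from 0.00872 to 0.036). Rxra, the partner of LXR, was not detected in iNOS-/- M1 cells, at least 1.26-fold lower than without stimulation (fitted change -1.19, adjusted p = 0.0249). Srebf1, a regulator of fatty acid synthesis, fell by 1.17 in iNOS-/- cells (adjusted p = 0.04). It was detected on 1 of the 2 iNOS-/- M1 arrays, with values of 2.91 and 3.97, and this fall was not run under the alternatives. In WT cells Srebf1 changed by -0.59 (adjusted p = 0.254), a fall called under neqc and a floor of 16 (adjusted p = 0.0156 and 0.0266).

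Ch25h, which makes the oxysterol 25-hydroxycholesterol, moved the other way. Its means were 5.11 ± 0.17 in WT unstimulated, 9.36 ± 0.07 in WT M1, 6.36 ± 0.02 in iNOS-/- unstimulated and 11.74 ± 0.02 in iNOS-/- M1 cells (SD, n = 2). It rose by 4.25 in WT cells (19.0-fold, adjusted p = 3.18e-05) and by 5.39 in iNOS-/- cells (41.8-fold, adjusted p = 1.44e-05), and the responses differed by 1.14 (adjusted p = 0.00369). Mylip and Msr1 were detected on 0 arrays, Apoc1 on 1, and Npc1 had no row.

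**Figure D5:**
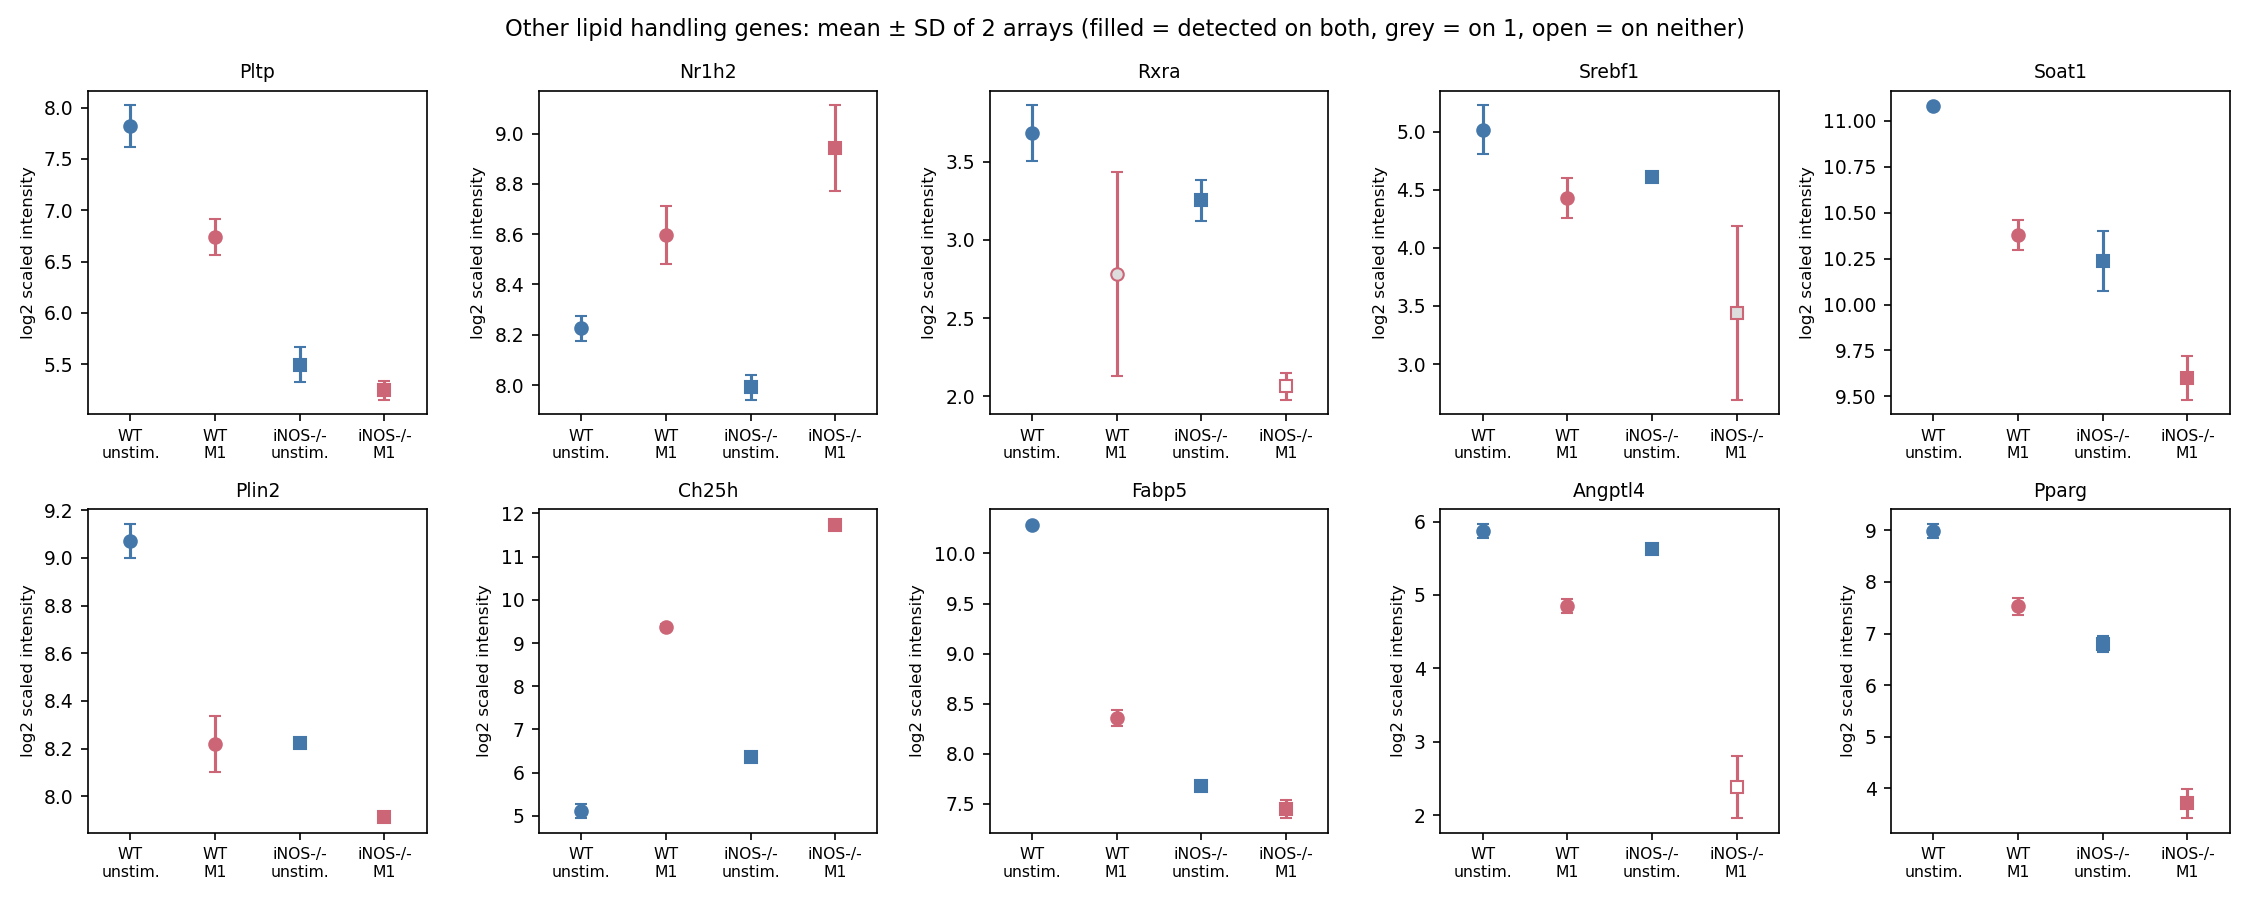
Mean log2 scaled intensity ± SD of 2 arrays (y axis, a separate range in each panel) of 10 other lipid-handling genes in the 4 groups (x axis). Filled symbols were detected on both arrays, grey on 1 and open on neither. The means of Pltp, Fabp5, Soat1 and Pparg follow the order seen for Apoe, and Ch25h rises on stimulation in both genotypes.

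The cultures carried macrophage markers, with all 9 listed genes detected on every array. Their summed intensity was 23838 to 24624 on iNOS-/- unstimulated arrays, 30590 to 30998 on WT unstimulated, 31995 to 34595 on WT M1 and 36507 to 37023 on iNOS-/- M1 arrays. The sum follows its brightest genes, such as Lyz2. In iNOS-/- M1 against WT M1 cells, 5 of the 9 were called lower and 3 higher (median -0.55), beside 24.3% and 24.2% of all rows. In unstimulated iNOS-/- against WT cells, 3 were lower and 1 higher, beside 16.2% and 15.9%. Summed levels of markers of other cells differed between the groups. The summed intensity of 8 dendritic cell markers was 369 to 433 on WT unstimulated arrays, 2133 to 2175 on WT M1, 1980 to 2023 on iNOS-/- unstimulated and 6418 to 6443 on iNOS-/- M1 arrays, with 5, 7, 7 and 6 of the 8 detected on both arrays and Flt3 on none. For 8 granulocyte markers it was 948 to 972, 1324 to 1454, 1575 to 1672 and 3867 to 3966 in the same order, with 2, 5, 5 and 5 detected on both arrays and Mpo and Prtn3 on none. For 6 of 8 dividing-cell markers that had a row it was 434 to 499, 1361 to 1474, 1493 to 1499 and 586 to 588, with 4 detected in every group, so that this sum was high in the 2 middle groups of the Apoe order and low in the highest and lowest. These sums follow their brightest genes. S100a8 was the brightest granulocyte marker, at 9.84 and 9.88 on WT unstimulated and 11.50 and 11.54 on iNOS-/- M1 arrays. From iNOS-/- unstimulated to M1, 4 of 7 tested dendritic cell markers rose and 1 fell, beside 26.2% and 23.8% of all rows. Of 6 tested granulocyte markers, 5 rose and 0 fell. Cd209a, a dendritic cell marker, went from 5.16 and 5.39 to undetected. The part of these cell types in the values of Apoe and the other members was not tested. No stromal or lymphocyte marker was detected on both arrays of a group, and of 5 adipocyte markers at most 1 was, so the defining markers of those cells were at or near background.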

How the data were processed

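The authors deposited 1 scanner report that gives, for every probe on each array, a bead-averaged intensity and a p-value of detection, exported from GenomeStudio. Per the submitters' processing notes, limma 3.14.4 was also used, and the methods name subtraction of background, a rank-invariant step, 1 in place of negative values, and log2. Intensities of undetected probes lay around 0, so no background was subtracted here. The labels name 2 versions of the Illumina mouse array. The number of arrays limits the precision.

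Arrays were brought to the scale of their mean by robust regression without intercept (rlm of MASS 7.3.60.0.1, R 4.3.3) over rank-invariant probes. The rank of such a probe differed from its rank on the mean array by under 0.05 of the latter. Both ranks lay between 0.5 and 0.9 of all ranks. Values under 1 were set to 1 and log2 was taken. Rows detected on 2 or more arrays (p-value under 0.05, 13868 rows) entered a model of the 4 groups fitted to the 8 arrays by limma 3.58.1 (lmFit, eBayes) with Benjamini-Hochberg adjustment over all of them. The difference in response is the change in iNOS-/- cells minus that in WT cells. The procedure was tested on simulated data.

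Where a row was undetected on both arrays of a group, its fold is a bound: on each of those arrays the row took its own value or the lowest detected value, whichever was higher, and their mean was set against the brighter group. Medians given with bounds set such rows to their bound, or to 0 where none exists. The other medians use the fitted changes. An adjusted p given with a bound belongs to the fitted change, which uses the undetected values, and not to the bound. Every row of a member was described. Among other lipid genes, the 3 largest called responses in each genotype and a fixed set of regulators and transporters were named, from the row with the highest mean, and some of these genes are not reported here. Genes most like Apoe were the 5 highest and 3 lowest by Pearson r. The members and lists were chosen with earlier results of these data known. RefSeq tables (GRCm38.p6) gave gene order and promoters, and symbols of the array's design were updated through Entrez identifiers (23788 rows), symbols (842) or synonyms (471), with 596 unmatched. The build of the array's own coordinates is not given in the sources used here.

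Alternatives were quantile normalization, neqc, an intercept in the scaling line, a floor of 16, no detection filter, detection on all 8 arrays, the arrays of 2 groups alone, the replicate number as a block, an intensity trend, 1 probe a gene, and each array left out. Profile likeness and the rank of WT unstimulated arrays under quantile normalization and neqc were added after seeing the data, as were the member counts without the 2 rows that passed the filter through WT unstimulated arrays alone. The replicate numbers did not pair arrays: deviations of same-numbered arrays from their group means correlated between -0.037 and 0.025 over 6 pairs of groups.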

Additional observations from a re-analysis of the deposited data

Results flagged for a closer look

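Each result here was singled out because the response to LPS plus IFN-γ differed between the genotypes by the interaction term of the limma fit, over 2 arrays a group. The difference is the change in iNOS-/- cells minus that in WT cells. The bright Apoc2 row differed by 1.18 (SE 0.14, adjusted p = 0.00257), falling further in WT cells. The Apoe value was 2.49, which is the difference between the genotype values the gene was chosen for and stands as a description. The dim Apoc2 row gave 2.90, also a description, since it was detected in WT unstimulated cells alone and passed the filter through them. Abcg1 differed by -0.95 (SE 0.15, adjusted p = 0.00622), falling further in iNOS-/- cells. Npc2 differed by 1.69 (SE 0.24, adjusted p = 0.0043), lower after stimulation in WT and higher in iNOS-/- cells. Lpl differed by 0.76 (SE 0.14, adjusted p = 0.0105), a value that was 0.08 under quantile normalization (adjusted p = 0.632) and under neqc (adjusted p = 0.653). Scarb1 gave -3.27, also a description, since it was undetected in iNOS-/- M1 cells and both values there were set to the floor.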

How the results depend on the processing

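Apoe, the bright Apoc2 row and Abcg1 kept the direction of every change and difference under every alternative run. The number of members called higher in iNOS-/- M1 than iNOS-/- unstimulated cells went from 2 to 0 under quantile normalization, neqc and a fit on those 4 arrays alone. The number higher in iNOS-/- M1 than WT M1 cells went from 1 to 0 under quantile normalization, neqc, no detection filter and the 4 arrays alone, and to 4 with an intercept in the scaling line. The number lower in WT M1 went from 5 to 8 under neqc. The number with a lower response in iNOS-/- cells went from 2 to 1 under neqc, an intercept, a floor of 16 and detection on all 8 arrays. Leaving out 1 array gave 2 to 4 members lower in WT M1, 1 to 2 higher and 2 to 3 lower in iNOS-/- M1 than unstimulated cells, 0 to 1 higher in iNOS-/- M1 than WT M1 cells, and 4 to 7 lower in unstimulated iNOS-/- cells. Over all rows it gave 3093 to 4861 calls for the WT response (4867 with all arrays) and 2697 to 4419 for the unstimulated genotypes (4447). For the other lipid genes called higher it gave 5 to 8 in the WT response (9 with all arrays) and 2 to 5 between unstimulated genotypes. Lpl in iNOS-/- cells turned from 0.39 to -0.29 under quantile normalization and under neqc. Scarb1 in WT cells ranged from -0.19 to 0.11 when 1 array was left out and turned from -0.04 to 0.05 without WT unstimulated replicate 2 and 0.11 without WT M1 replicate 2, none of them called. With the replicate number as a block, which pairs arrays by number only, the members higher in iNOS-/- M1 than WT M1 cells went from 1 to 0. The causes were not tested. An intercept moved the median difference in response of all rows from 0.01 to 0.29. Rows near background give only bounds.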
